A study of Mus musculus with 6 samples.

Results

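C-type lectin receptors are surface proteins through which myeloid cells bind sugars on fungi, bacteria and damaged cells. The group described here holds 10 such genes, Clec4d, Clec4e, Clec4n, Clec5a, Clec7a, Mrc1, Cd209b, Cd209c, Cd209d and Clec4b1. They were chosen by name and found by symbol in the array annotation, where all 10 had a probe set (a group of short probes that measures 1 transcript), among 12393 genes measured. The arrays were Affymetrix 3′ arrays of total RNA from CD11c-positive conventional dendritic cells (DCs), the antigen-presenting cells sorted by flow cytometry from the spleen or the lymph nodes of BALB/c mice. Both groups share the strain and the CD11c sort and carry no stated treatment or allele, and the labels used here give no age. There were 3 arrays labelled Spleen DC and 3 labelled Lymph node DC. Nothing says whether these came from separate animals, so p-values measure only the spread between arrays, which may be technical.

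The receptors fall into functional classes. Clec7a (Dectin-1, which binds fungal glucans) carries its own tyrosine-based signalling motif. Clec4n (Dectin-2, which binds mannans), Clec4e (Mincle, which binds mycobacterial glycolipids) and Clec4d pair with Fcer1g, the Fc receptor gamma chain, whereas Clec5a pairs with the adaptors Tyrobp and Hcst. In each case the kinase Syk relays the signal, through the adaptor Card9 to NF-kB, and also to NFAT. Mrc1 (the mannose receptor) and the Cd209 genes, mouse relatives of human DC-SIGN, mainly take up ligands. Mrc1 is a familiar marker of tissue macrophages, and Cd209b is known from marginal zone macrophages of the spleen.

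All 10 conventional DC markers measured were above background in both groups. Of these, 2 passed as lower in the arrays labelled spleen, Itgax, the CD11c gene (log2 difference -0.97 ± 0.17 SE, adjusted p = 0.0310 in limma), and Ciita, the class II transactivator (-1.45 ± 0.22, adjusted p = 0.0196). The list's median was -0.51, and 2 of the 10 had positive differences. The groups of arrays did not overlap for 9 of the 10, against 24.5% of all genes. Over all genes 1.37% passed an adjusted p of 0.05 as lower and 2.03% as higher. Ccr7, which guides migrating DCs into lymph nodes, was the 1 marker that passed as higher in the arrays labelled spleen (1.47 ± 0.31, adjusted p = 0.0496). Marco, a gene of splenic marginal zone macrophages, was also higher in the arrays labelled spleen. It was the only 1 of 18 macrophage markers to pass, 6 of the 18 had positive differences and their median was -0.44. Cd209b, known from the same macrophages but near background in both groups, was lower in the arrays labelled spleen (-1.44). The organ labels were not tested, and every difference below is spleen minus lymph node as labelled. Spike-in bacterial poly-A controls were also higher in the arrays labelled spleen (mean log2 intensity 8.41 to 9.06 against 7.39 to 7.96). These ranges do not overlap, so a fit with the control level as a covariate cannot separate it from the organ label. In bulk RNA, fewer cells of a type and less RNA per cell cannot be told apart. Background was set from 25 measured genes restricted to other tissues, such as albumin and pituitary hormones. A gene was called near background in a group when its mean log2 intensity did not exceed their 90th percentile, 5.29 for lymph node and 5.08 for spleen; the medians of those 25 genes were 3.80 and 3.68.

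By this limit 4 receptor genes, Clec4n, Clec4b1, Clec7a and Cd209d, were above background in both groups. Clec4d, Clec4e, Clec5a, Mrc1 and Cd209b, 5 in all, were near background in both, and Cd209c was near background in the lymph node arrays. Only 1 of the 10 genes, Cd209b, passed an adjusted p of 0.05 in limma, and it was lower in the arrays labelled spleen. Over all genes 3.40% passed, 2.03% higher and 1.37% lower in the arrays labelled spleen. The median log2 difference was -0.056 over the 10 genes and -0.0053 over all genes. The groups of arrays did not overlap for 5 of the 10, against 24.5% of all genes; 4 of these 5 were lower in the arrays labelled spleen (12.7% of all genes were, without overlap) and 1 was higher (11.8% of all genes). Without both arrays numbered 3, which lay apart for several of these genes, 4 genes passed in a fit chosen after seeing the data, namely Clec4n, Clec5a, Mrc1 and Cd209d, and Cd209b did not. In that fit 3.87% of all genes passed, 2.57% higher and 1.30% lower in the arrays labelled spleen.

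**Figure D1:**
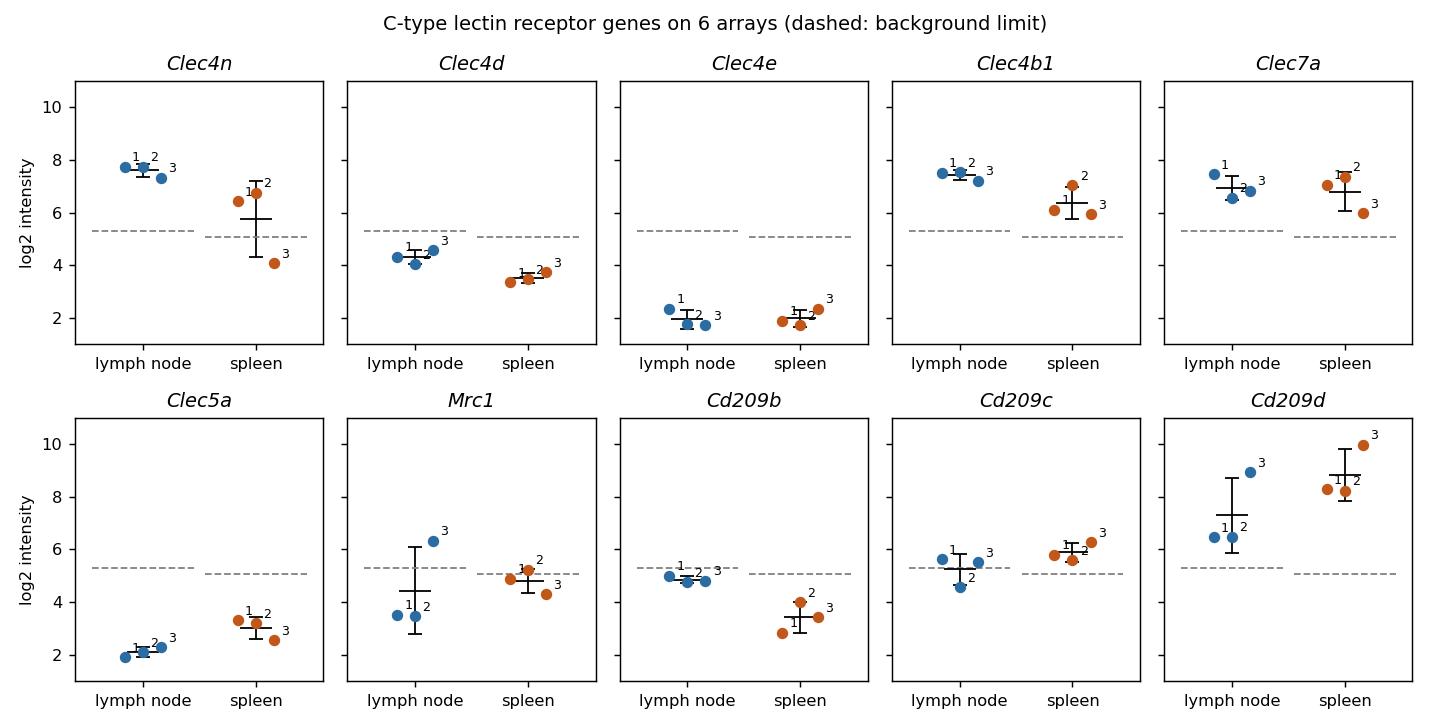
Log2 intensity (vertical axis) of the 10 receptor genes on each array, numbered by replicate, with lymph node arrays in blue and spleen arrays in orange; black bars are the mean ± SD of 3 arrays and dashed lines the background limits of 5.29 and 5.08. Clec4n, Clec4b1, Clec7a and Cd209d have both group means above the limits, and the spleen array 3 value of Clec4n (4.08) and the lymph node array 3 value of Mrc1 (6.33) lie away from their groups.

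The promoters of the genes above background, and of the 1 gene that passed, are shown. The genes above background had estimated differences of both signs, none past the threshold. RefSeq (build GRCm38.p6) gave a promoter for 9 of the 10 genes, all but Clec4n. The 250 bases upstream of the start are printed 5′ to 3′ on the gene's strand. Capitals mark matches, on either strand, to 3 motif strings: PU.1 (GAGGAA), AP-1 (TGANTCA) and C/EBP (TTNCNNAA). The windows lie at chr6:123049712-123049961 (plus strand) for Clec4b1, chr6:129472786-129473035 (minus) for Clec7a, chr8:3878500-3878749 (minus) for Cd209d and chr8:3926842-3927091 (minus) for Cd209b.
Clec4b1: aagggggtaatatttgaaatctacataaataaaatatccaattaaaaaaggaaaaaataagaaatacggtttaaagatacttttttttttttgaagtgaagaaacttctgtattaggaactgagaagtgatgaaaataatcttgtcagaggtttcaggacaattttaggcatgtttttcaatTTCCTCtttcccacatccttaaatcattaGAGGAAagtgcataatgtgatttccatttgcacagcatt
Clec7a: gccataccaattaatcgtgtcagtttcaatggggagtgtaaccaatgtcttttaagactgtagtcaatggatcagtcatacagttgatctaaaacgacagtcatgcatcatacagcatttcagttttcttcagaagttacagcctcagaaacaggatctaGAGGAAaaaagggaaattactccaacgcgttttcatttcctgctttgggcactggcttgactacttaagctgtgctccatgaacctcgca
Cd209d: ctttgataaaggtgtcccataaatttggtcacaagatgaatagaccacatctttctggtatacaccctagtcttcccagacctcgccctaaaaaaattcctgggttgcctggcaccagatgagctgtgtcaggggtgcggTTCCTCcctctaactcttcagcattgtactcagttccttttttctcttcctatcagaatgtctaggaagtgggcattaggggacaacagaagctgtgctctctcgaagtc
Cd209b: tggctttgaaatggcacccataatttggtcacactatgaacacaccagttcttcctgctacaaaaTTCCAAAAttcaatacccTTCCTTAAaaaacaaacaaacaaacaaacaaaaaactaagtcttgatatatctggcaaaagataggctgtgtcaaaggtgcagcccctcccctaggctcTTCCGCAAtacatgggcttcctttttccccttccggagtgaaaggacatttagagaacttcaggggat

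The PU.1 string, named for a transcription factor of myeloid cells, occurred in 7 of the 9 receptor windows and in 23.3% of 32851 windows of the same length. Neither Cd209b nor Cd209c had it. The C/EBP string was in 6 of 9 (36.8% of all windows), with 3 matches in Cd209b. The AP-1 string was in 0 of 9 (6.75% of all windows). Clec4b1 and Cd209d, printed above, both held PU.1 matches, while their differences, neither past the threshold, were of opposite sign.

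Clec4n, the receptor with the largest absolute difference, had log2 intensities of 7.74, 7.74 and 7.33 in lymph node arrays 1 to 3. In spleen arrays 1 to 3 it stood at 6.44, 6.75 and 4.08. All lymph node values were above all spleen values, but spleen array 3 lay far under the other two. The log2 difference was -1.85 ± 0.63 (SE; 95% interval -3.31 to -0.39), 3.61-fold lower in the arrays labelled spleen, and missed the threshold (adjusted p = 0.162). A second probe set of Clec4n gave -0.69 ± 0.52 with overlapping groups. Without spleen array 3 the difference was -1.01 (adjusted p = 0.0508), and without both arrays numbered 3 it was -1.15 (adjusted p = 0.0404). Both probe sets carry suffixes of designs that can match more than 1 transcript, as do those of Clec4d, Cd209b and Cd209d. Conventional DC markers summed to 12453, 16328 and 13663 intensity units in spleen arrays 1 to 3 and to 18312 to 18743 in the lymph node arrays, and their part in the Clec4n difference was not tested. Neutrophil markers had a summed intensity of 254, 749 and 823 units in lymph node arrays 1 to 3 and of 131 to 211 in the spleen arrays. Of 12 measured 1 passed as lower, against 1.37% of all genes, namely Camp, an antimicrobial peptide gene (-1.37 ± 0.28, adjusted p = 0.0425). Of the 12, 10 were near background in both groups. The calcium-binding protein genes S100a9 (-3.44 ± 0.76, adjusted p = 0.0536) and S100a8 (-2.63 ± 0.59, adjusted p = 0.0569) did not overlap. The part of neutrophil RNA in the lower values of Clec4n, Clec4b1, Clec4d and Fcer1g was not tested.

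Clec4b1, a lectin of the DC immunoactivating receptor type, had values of 7.52, 7.54 and 7.21 on the lymph node arrays and of 6.11, 7.05 and 5.93 on the spleen arrays. The groups did not overlap, although spleen array 2 came close to lymph node array 3. The log2 difference was -1.06 ± 0.30 (SE; 95% interval -1.75 to -0.37; adjusted p = 0.103). It passed without spleen array 2 (-1.40, adjusted p = 0.0233). A probe set shared by Clec4b1 and its neighbour Clec4a2, an inhibitory lectin gene, differed by -1.31 ± 0.29 with groups that did not overlap (adjusted p = 0.0604 over probe sets). Clec4a2 by its own probe set differed by -0.87 ± 0.31 (adjusted p = 0.185).

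Clec7a was measured at 7.45, 6.57 and 6.83 on the lymph node arrays and at 7.06, 7.36 and 5.98 on the spleen arrays. The groups overlapped. Its log2 difference of -0.15 ± 0.38 (SE) has a 95% interval from -1.04 to 0.74, and the adjusted p was 0.884. The sign turned without spleen array 3 (0.26) and without lymph node array 1 (0.10). Clec7a thus gave a signal above background in both groups with no difference detectable beyond the array spread.

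Clec4d and Clec4e, which follow Clec4n directly in the gene order of the RefSeq table, gave little signal. Clec4d had values of 4.32, 4.04 and 4.58 on the lymph node arrays and of 3.35, 3.47 and 3.73 on the spleen arrays, all below the background limits. The groups did not overlap, with a log2 difference of -0.80 ± 0.20 (SE; adjusted p = 0.0732). Clec4e ranged from 1.72 to 2.35 in both groups, under the median of the tissue-restricted genes. Its difference was 0.04 ± 0.24 (adjusted p = 0.954), with a sign that turned under several alternatives. Of the 3 neighbouring genes 1 was thus above its background limits and the other 2 were not.

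Clec5a, the receptor that signals through Tyrobp, was the 1 gene of the group whose spleen values all exceeded the lymph node values. It had values of 1.89, 2.10 and 2.29 on the lymph node arrays and of 3.31, 3.20 and 2.54 on the spleen arrays. The log2 difference was 0.92 ± 0.24 (SE; 95% interval 0.37 to 1.47; adjusted p = 0.0835). On the linear scale this is 3.7 to 4.9 against 5.8 to 9.9 intensity units, with all values under the background limits. It passed without spleen array 3 (1.16, adjusted p = 0.0284) and without both arrays numbered 3 (1.26, adjusted p = 0.0295).

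**Figure D2:**
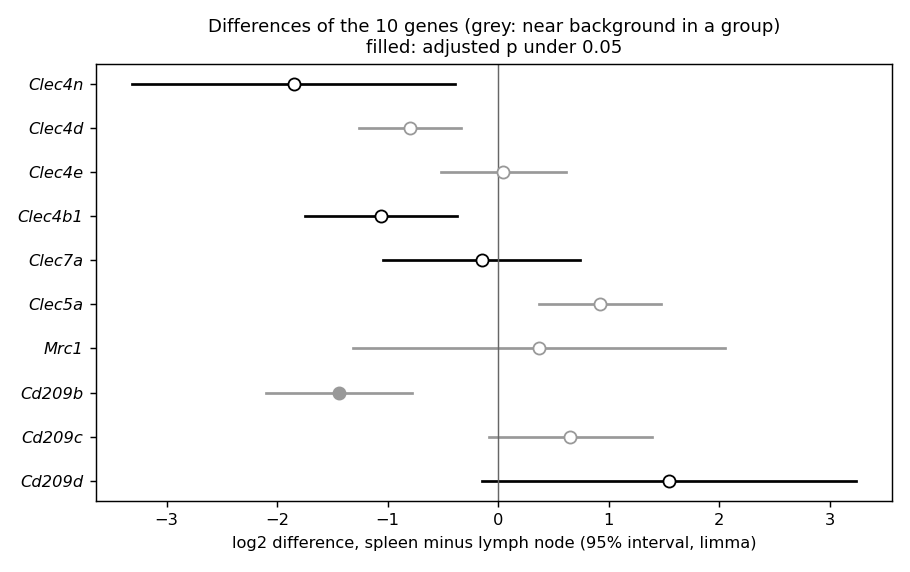
Log2 difference, spleen minus lymph node (horizontal axis), of each receptor gene with its 95% interval from limma; grey marks genes near background in at least 1 group and the filled point the gene with an adjusted p under 0.05. The filled point is Cd209b at -1.44; among the genes in black, Clec4n and Clec4b1 lie below 0 with intervals that do not reach it, and Clec7a and Cd209d have intervals that include 0.

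The 3 Cd209 genes lie next to each other in the order Cd209d, Cd209b and Cd209c, and gave different patterns. Cd209b, known as SIGNR1, had log2 intensities of 4.99, 4.74 and 4.81 in the lymph node arrays and 2.83, 3.99 and 3.41 in the spleen arrays. The groups did not overlap. The log2 difference was -1.44 ± 0.28 (SE; 95% interval -2.10 to -0.78), 2.71-fold lower in the arrays labelled spleen (adjusted p = 0.0402). Both means lie within the background range, and the size of the fold is therefore uncertain. Of 5435 genes near background in both groups 41 passed, or 0.754%. Tshb, a pituitary hormone gene among the 25 tissue-restricted genes, differed alike, at 5.29, 5.14 and 5.53 against 3.57, 4.50 and 4.12 (log2 difference -1.25 ± 0.25, adjusted p = 0.0425). With 1 array left out, Cd209b passed only in the absence of spleen array 2 (adjusted p = 0.0217). The adjusted p was 0.171, 0.142 and 0.0902 when lymph node arrays 1, 2 and 3 were dropped in turn, and 0.0819 and 0.0675 when spleen arrays 1 and 3 were. With log2 of the value plus 16 the difference was -0.73 (adjusted p = 0.0515). With the poly-A control level as a covariate it was -0.37 (adjusted p = 0.962), but that level separates the groups, so this fit cannot decide.

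Cd209d, or SIGNR3, is the gene whose profile was compared with all others further on, since its probe set had the highest mean; levels of different probe sets are not comparable as transcript levels. Its log2 intensity was 6.47, 6.48 and 8.92 in lymph node arrays 1 to 3 and 8.29, 8.22 and 9.98 in spleen arrays 1 to 3. Lymph node array 3 exceeded spleen arrays 1 and 2, so the groups overlapped, and in each group the array numbered 3 was the highest. The log2 difference was 1.55 ± 0.73 (SE; 95% interval -0.15 to 3.24; adjusted p = 0.308). Without lymph node array 3 it was 2.36 (adjusted p = 0.0784), and without both arrays numbered 3 it was 1.79 (adjusted p = 0.0118). With the replicate number as a block in the fit the adjusted p was 0.0182, but no label says that the numbers pair the arrays. With the poly-A covariate the sign of the difference turned (-1.07, adjusted p = 0.959).

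Markers of plasmacytoid DCs, an interferon-producing lineage, moved with Cd209d in the spleen arrays. Of 11 measured, 10 were highest in spleen array 3. Their summed intensity was 6091 units there, 2099 to 2310 in the other spleen arrays and 1335 to 1939 in the lymph node arrays. Within the lymph node group the sum was also highest in array 3 (1335, 1528 and 1939 in arrays 1 to 3), as was Cd209d. The match was not one of height. The marker sum of 1939 in lymph node array 3 was below spleen arrays 1 and 2, whereas Cd209d was above them. Of these 11 markers 3 (Ccr9, Klk1 and Blnk) passed as higher in the spleen arrays, and 0 passed as lower, against 2.03% and 1.37% of all genes. Their part in the Cd209d values was not tested. Among 6196 genes brighter than the median gene, the 5 whose centred log2 profile was most like that of Cd209d over the 6 arrays were Iglv1, Snx18, Lifr, Tcf4 and Ccr2. Their root mean square differences from Cd209d were 0.26, 0.40, 0.41, 0.44 and 0.47, against a spread of 1.26 for Cd209d itself. Tcf4 is a transcription factor of plasmacytoid DCs and one of the 11 markers, and Ccr2 is a chemokine receptor on the monocyte marker list. Of the 9 measured genes of that list 0 passed, 3 had positive differences and the median was -0.11.

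Cd209c, or SIGNR2, had values of 5.62, 4.56 and 5.52 on the lymph node arrays and of 5.79, 5.59 and 6.27 on the spleen arrays. The groups overlapped by a narrow margin, since spleen array 2 fell below lymph node array 1. The log2 difference was 0.65 ± 0.32 (SE; 95% interval -0.08 to 1.39; adjusted p = 0.320). The spleen mean of 5.89 was above the limit and the lymph node mean of 5.23 was not.

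Mrc1 was set apart by 1 array. It lay at 3.51, 3.45 and 6.33 in lymph node arrays 1 to 3 and at 4.88, 5.22 and 4.29 in the spleen arrays. The spleen values stood between lymph node array 3 and the other 2. The log2 difference of 0.37 ± 0.72 (SE; 95% interval -1.31 to 2.05; adjusted p = 0.848) became 1.32 without lymph node array 3 (adjusted p = 0.0752) and 1.57 without both arrays numbered 3 (adjusted p = 0.0207). Without lymph node array 1 or 2 the sign turned (-0.09 and -0.12). Of 18 macrophage markers measured, 13 were highest in lymph node array 3, where their summed intensity was 2652 units against 1396 and 1499 in the other lymph node arrays and 982 to 1400 in the spleen arrays. Among them, and picked after its values were seen, the iron exporter gene Slc40a1 lay at 7.39 in lymph node array 3 and at 3.34 to 3.66 in the other 5 arrays. In 9 of the 18 the group means were near background in both groups, including Mertk, Fcgr1 and C1qa. Only Marco, a scavenger receptor of marginal zone macrophages, passed (higher in the arrays labelled spleen, 2.09 ± 0.37, adjusted p = 0.0310). Its lymph node mean of 4.56 was near background, so that size is uncertain. Over all genes 2.03% passed as higher. The part of macrophage RNA in the Mrc1 and Cd209b values was not tested.

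**Figure D3:**
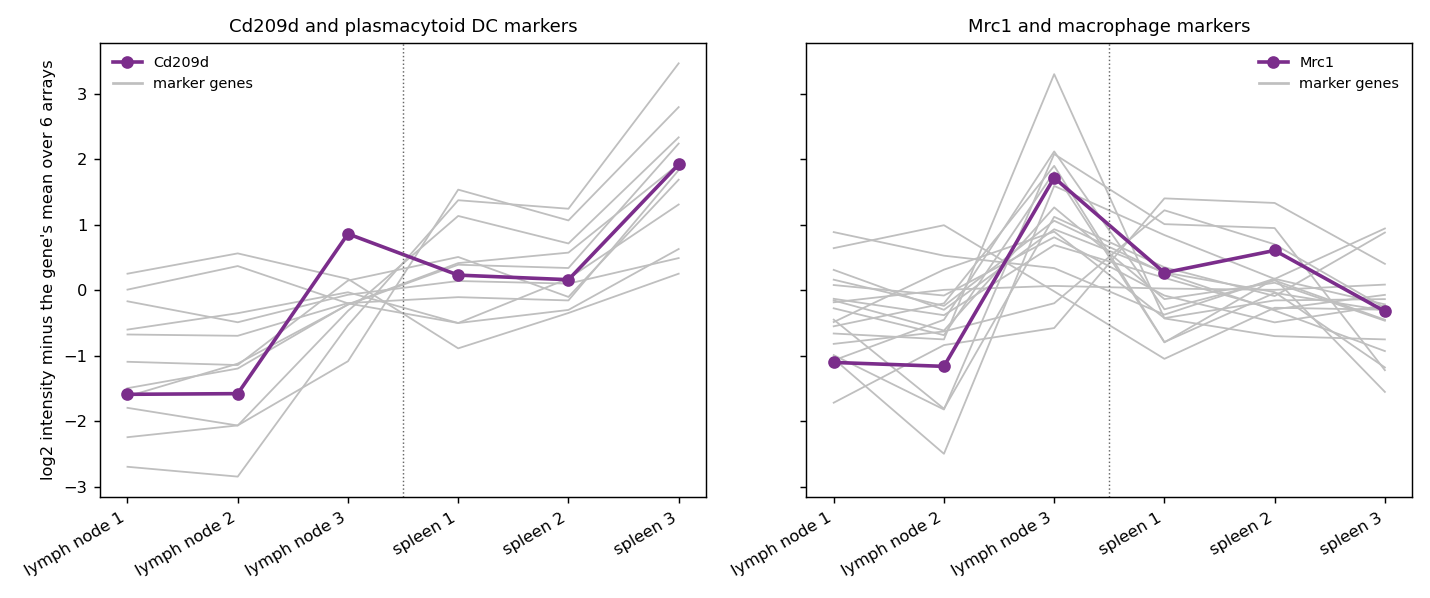
Log2 intensity minus each gene's own mean over the 6 arrays (vertical axis) for Cd209d with 11 plasmacytoid DC markers (left) and Mrc1 with 18 macrophage markers (right), by array; lines join the points of 1 gene only and the dotted line separates the groups. Most plasmacytoid DC markers and Cd209d are highest in spleen array 3, and 13 macrophage markers and Mrc1 are highest in lymph node array 3.

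Signalling partners were described from a list of 35 genes, of which 26 were measured; Card9 was among those not analysed here. In the arrays labelled spleen 3 were lower, 1 was higher and 22 did not pass, with a median log2 difference of -0.20 against -0.0053 over all genes. Of all genes 1.37% passed as lower and 2.03% as higher. Fcer1g, the gamma chain that pairs with Clec4n, Clec4d and Clec4e, was lower. It had values of 8.53, 8.70 and 7.90 on the lymph node arrays and of 6.21, 6.97 and 6.96 on the spleen arrays (log2 difference -1.66 ± 0.29 SE, adjusted p = 0.0304). The groups were clearly apart for Fcer1g, with every spleen value under every lymph node value. The Src family kinase gene Fgr (-1.11 ± 0.21, adjusted p = 0.0358) and Nfatc1 (-0.98 ± 0.17, adjusted p = 0.0281), a transcription factor activated by calcium, were lower too.

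Blnk, an adaptor best known from B cells and also one of the plasmacytoid DC markers, was higher (3.60 ± 0.48, adjusted p = 0.0119). Its lymph node mean of 2.99 was near background. Those with the next smallest adjusted p did not pass: the phosphatase gene Ptpn6 (-0.98 ± 0.25, adjusted p = 0.0802), Nfatc2 (-0.86 ± 0.25, adjusted p = 0.111) and Src (1.94 ± 0.57, adjusted p = 0.114). Syk itself differed by -0.16 ± 0.18 (adjusted p = 0.712), and Tyrobp, the partner of Clec5a, by -0.09 ± 0.19 (adjusted p = 0.856). Without lymph node array 1 or 2, 0 signalling genes passed in limma, and without spleen array 1 only Blnk did. The unadjusted p was under 0.05 for 19.0% of all genes with all 6 arrays, and 1606 and 1618 genes had it without lymph node array 1 and 2. When the poly-A controls, whose level separates the groups, entered the fit as a covariate 0 passed as well. In that fit 701 of all genes had an unadjusted p under 0.05.

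Other C-type lectin genes of the same superfamily were taken from a list of 48, of which 38 were measured. In the arrays labelled spleen 2 were higher, 1 was lower and 35 did not pass. Over all genes 2.03% passed as higher and 1.37% as lower. The median log2 difference was 0.20 against -0.0053 over all genes, and 22 of the 38 were near background in both groups. Clec10a, a galactose-type lectin of DCs and macrophages, was higher; it had values of 4.73, 4.32 and 5.61 on the lymph node arrays and of 6.87, 7.64 and 8.13 on the spleen arrays (2.66 ± 0.41 SE, adjusted p = 0.0196). Mrc2, the collagen-binding relative of Mrc1, was higher too (1.16 ± 0.22, adjusted p = 0.0351). Both were near background in the lymph node arrays (means 4.89 and 4.48), so the sizes of these differences are uncertain. Cd72, an inhibitory lectin best known from B cells, was lower, at 8.16 to 8.22 against 9.23 to 9.52 (-1.19 ± 0.15, adjusted p = 0.0119).

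Cd209a, another Cd209 gene above background in both groups, had values of 9.34, 9.35 and 9.05 on the lymph node arrays and of 8.13, 8.75 and 8.62 on the spleen arrays. It did not overlap but missed the threshold (-0.75 ± 0.21, adjusted p = 0.102). Klrk1 (1.28 ± 0.41, adjusted p = 0.138) and Ly75 (1.07 ± 0.34, adjusted p = 0.143), the endocytic receptor DEC-205, also did not pass. Cd209a and Cd209d, 2 relatives above background, thus had differences of opposite sign, neither past the threshold. Cd209e, another gene of that cluster, was at 6.48 in lymph node array 3 and at 2.68 to 4.33 in the other 5 arrays, as was seen for Mrc1. It was named after its values were seen. Without lymph node array 1 or 2, 0 of these lectin genes passed.

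**Figure D4:**
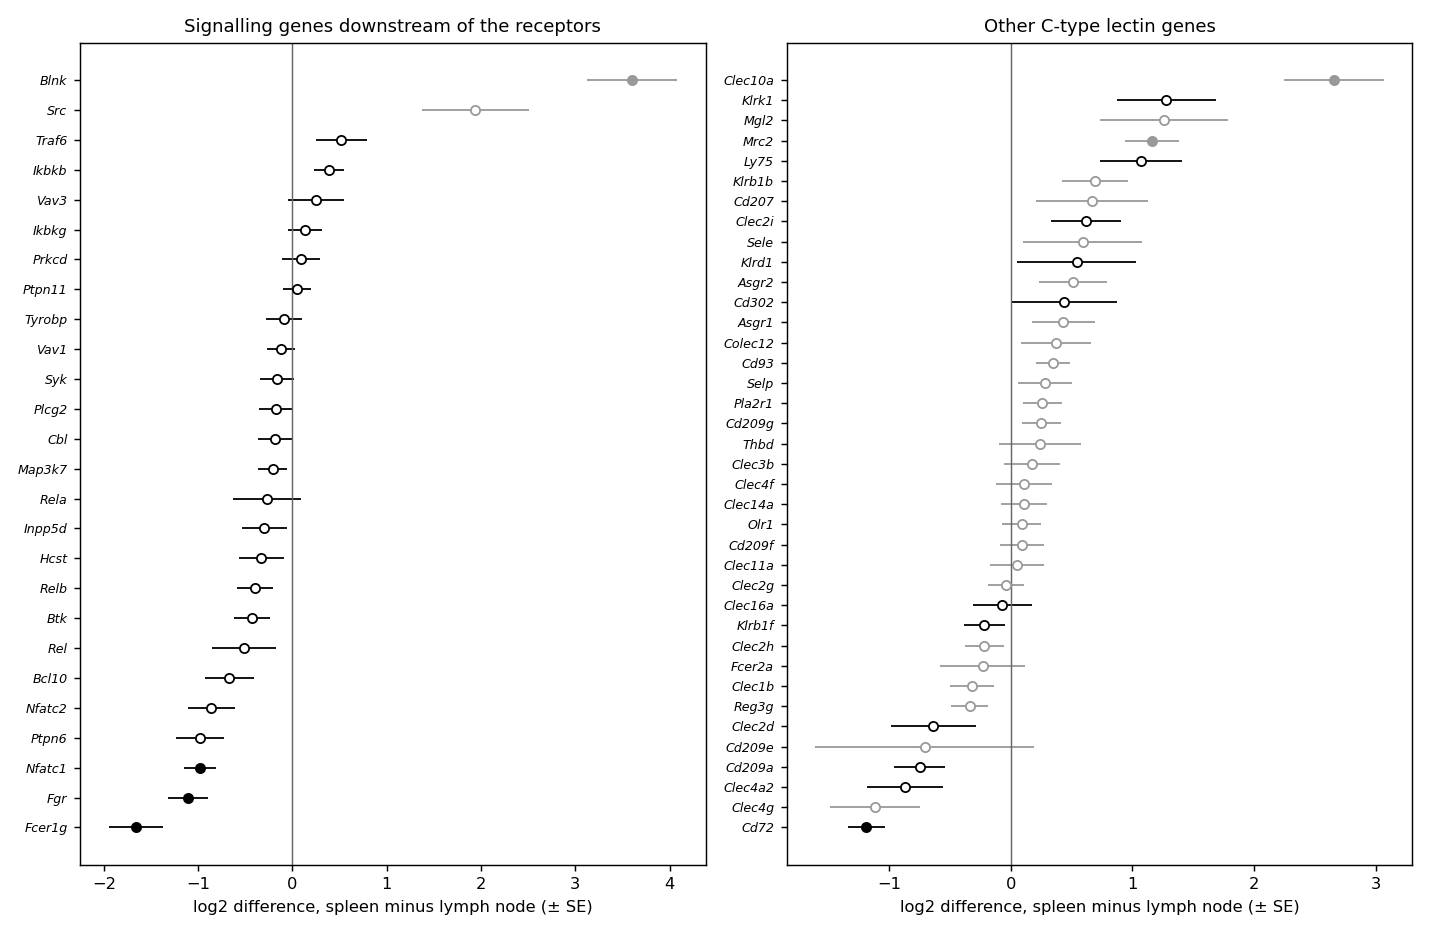
Log2 difference, spleen minus lymph node (horizontal axis, ± SE from limma), of 26 signalling genes (left) and 38 other C-type lectin genes (right); filled points have an adjusted p under 0.05 and grey marks genes near background in at least 1 group. Fcer1g, Fgr and Nfatc1 lie at the lower end on the left, and Clec10a and Cd72 at opposite ends on the right.

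Genes that such receptors can induce, 25 cytokine, chemokine and early response genes, had a median log2 difference of -0.003. Only Tnf passed, lower in the arrays labelled spleen at 5.44, 5.13 and 4.86 against 6.46, 6.51 and 5.91 (-1.15 ± 0.23 SE, adjusted p = 0.0414). Of all genes 1.37% passed as lower and 2.03% as higher. With 1 array left out, Tnf passed only in the absence of lymph node array 3, and it did not pass with median centring or with log2 of the value plus 16. The next were Il12b (0.78 ± 0.19, adjusted p = 0.0703), Ccl4 (-1.62 ± 0.40, adjusted p = 0.0734) and Cxcl1 (3.57 ± 1.00, adjusted p = 0.103). Cxcl1, a neutrophil-attracting chemokine gene, lay at 8.24 and 7.40 in spleen arrays 1 and 2, at 3.77 in spleen array 3 and at 2.58 to 3.12 in the lymph node arrays. Without both arrays numbered 3, 7 of these genes passed, 4 higher (Il6, Cxcl1, Cxcl2 and Tnfaip3) and 3 lower (Tnf, Ccl3 and Ccl4).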

How the data were processed

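The authors deposited 1 table of probe set intensity on a linear scale; RMA and limma were used per the submitters' processing notes, and their versions are not given in the sources used here. Any floor or rescaling of the values is unknown, and the number of arrays limits the precision. Array medians were 39.4 to 41.3 units. Of 22690 probe sets 64 were controls. Of the rest 20380 had 1 gene symbol, and 20351 matched a RefSeq table of GRCm38.p6 by Entrez identifier. Each of 12393 genes was represented by its brightest such probe set. Log2 intensity of 3 spleen against 3 lymph node arrays, grouped by title, was fitted with limma 3.58.1 in R 4.3.3 (a linear model per gene with eBayes, two-sided, Benjamini-Hochberg over all genes). The functions were tested on simulated data. The 10 genes and the lists were chosen with earlier results of these data known. Named genes are mainly the 10 receptors, from each list those past the threshold and the 3 next by adjusted p, from marker lists up to 3, and the 5 genes most like Cd209d. Others were named outside this rule, among them the macrophage markers Slc40a1, Mertk, Fcgr1 and C1qa, and Syk, Tyrobp, Clec4a2 and Cd209e. Of the 10 marker lists, those of macrophages, neutrophils and plasmacytoid and conventional DCs are described, and that of monocytes in brief. In the others 0 to 1 members passed in each direction.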

Additional observations from a re-analysis of the deposited data

How the results depend on the processing

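The count of receptor genes past the threshold was 1 and ranged from 0 to 2 with 1 array left out. It was 0 with the filter at the median level, which removed Cd209b, with log2 of the value plus 16, without probe sets of the multi-transcript suffixes (Cd209b has no other), with the poly-A covariate and at an adjusted p of 0.01. It was 2 with array weights (Clec5a and Cd209b) and 4 without both arrays numbered 3, an alternative chosen after seeing the data, as it was for every count below. Signalling genes numbered 4, with 0 to 6 when 1 array was left out, 0 with the poly-A covariate, 0 at 0.01 and 7 without both arrays numbered 3. Other lectin genes numbered 3, with 0 to 4, 0, 0 and 6 in the same order. Inducible genes numbered 1, with 0 to 4, 0, 0 and 7; there were also 0 with median centring, 2 with the filter, 0 with the value plus 16, 4 with array weights and 3 with the replicate block. The call count over all 12393 genes was 421, with 764 under array weights, 63 at 0.01, 0 with the poly-A covariate and 47 to 475 with 1 array left out.

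Signs turned with the poly-A covariate for Cd209d (-1.07), Clec4b1 (0.24), Clec4n (0.13), Clec7a (1.38) and Mrc1 (-0.70). The control level separates the groups, so that fit cannot tell it apart from the organ label, and its lost calls and turned signs decide nothing. The sign of Clec4e turned with a second quantile normalization (-0.02), array weights (-0.14), without both arrays numbered 3 (-0.25) and with 1 array left out (-0.14 to 0.24). For Clec7a it turned without both arrays numbered 3 (0.20) and lay between -0.43 and 0.26 with 1 array left out; for Mrc1 that range was -0.12 to 1.32. Apart from fits on fewer genes or arrays, the cause was not tested. Cd209c, Clec4d, Clec5a and Cd209b kept their direction in all alternatives that measured them.

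Replicate numbers were shared by the groups. Deviations of same-numbered arrays correlated at 0.03, 0.24 and 0.17, and those of differently numbered arrays at -0.28 to 0.14. Of 6 arrays, 4 correlated best with their own number. These values do not settle whether same-numbered arrays share an animal or batch, and no label says so. With the replicate block the receptor count stayed at 1, with Cd209b at an adjusted p of 0.0504 and Cd209d at 0.0182, and 519 genes were called.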
